A study of Mus musculus with 12 samples.

Results

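The genes described here are the X-linked genes of mouse cells that lie above 140 Mb, a stretch at the distal end of the X chromosome. They were chosen by position, as the genes of the count tables on chromosome X whose lowest start was 140000000 or more in mm10, with Kdm5c, Huwe1, Phf8, Pdha1, Msl3, Arhgap6, Hccs and Mid1 left out. This gave 157 genes out of 22556 in the tables and out of 908 on chromosome X, and 165 genes lay in the range before the 8 were left out. Of the genes that averaged 50 counts or more per library, the first inside, Nup62cl, starts at 140007672, and the nearest outside, Rbm41, starts at 139889510. With Dox, Nup62cl gave -0.63 in WT, -0.04 in XistDelA and -0.32 in XistΔm6A/11C on the log2 scale relative to autosomal genes, and Rbm41 by -0.49, -0.05 and -0.44.

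Chromatin-associated RNA (ChrRNA), which is mostly nascent transcript, was sequenced from iXist-ChrX cells. These are XX mouse embryonic stem cells (mESCs) from a cross of 129S and Castaneus, with a Dox-inducible promoter at Xist on the 129S X chromosome and a Tet activator, and all 12 libraries share both. The question of the study was how deletions in Xist alter silencing, so that every line was compared before and after 24 h of Dox. WT gave 1 library without Dox and 1 with Dox. XistDelA cells, named here as in the labels, lack the A-repeat, and the 3 clones C1, 2C2 and C11 each gave 1 library in each state. The deletion in C11 carries another designation than that in C1 and 2C2 and may not be the same, and which clones hold the precise deletion of the study is not said. XistΔm6A/11C cells, T1_11C in the labels, lack the 5' m6A region of Xist and are 1 line with 2 replicates in each state. The cells were grown on inactivated fibroblast feeders, which were removed by pre-plating before RNA was taken. Fewer cells with Xist RNA and less silencing in each cell cannot be told apart in these bulk libraries.

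Xist RNA spreads in cis over the chromosome that makes it and lowers the transcription of most genes there, while a minority escape. The A-repeat at its 5' end binds SPEN, which brings corepressors with histone deacetylase activity, and the region just downstream carries N6-methyladenosine. The genes above 140 Mb have no function in common: they serve polyamine and nucleotide metabolism, cohesin, translation, signalling, protein turnover, membrane traffic and the cytoskeleton.

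Counts on genes per library ran from 18893447 to 36007145 (median 26552191). The genes above 140 Mb took 0.967 without Dox and 0.679 with Dox in WT, 1.03, 1.03 and 0.999 without Dox and 1.02, 0.998 and 0.927 with Dox in XistDelA, and 0.917 and 0.866 without Dox and 0.618 and 0.691 with Dox in XistΔm6A/11C, each as a percent of the counts on genes. After Dox the share in WT and XistΔm6A/11C was under that of every library without Dox, whereas the XistDelA libraries with Dox overlapped those without. Xist, the induced gene, stood at 297 without Dox and 5514 with Dox in WT, 124, 126 and 158 without Dox and 1543, 1267 and 1600 with Dox in XistDelA, and 100 and 85.6 without Dox and 3140 and 4576 with Dox in XistΔm6A/11C, in CPM, counts scaled to library size. Xist was higher with Dox in every pair, and the 3 XistDelA libraries with Dox lay below the other 3 with Dox. The XistΔm6A/11C libraries also stood apart in a gene unrelated to Xist: the RNA component Rmrp was at 582 without Dox and 777 with Dox in WT, 666, 918 and 874 without Dox and 498, 913 and 718 with Dox in XistDelA, and 4056 and 6202 without Dox and 7098 and 7638 with Dox in XistΔm6A/11C, in CPM. The 4 XistΔm6A/11C libraries thus exceeded the other 8 for Rmrp with and without Dox, so that the line and its libraries cannot be told apart in levels. Changes with Dox are taken within a pair, but Rmrp also differed within pairs, most in replicate 1 of XistΔm6A/11C in CPM. The libraries of that pair had 21551628 counts without Dox and 36007145 with Dox. The part of such differences in the changes was not tested.

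Markers of mESCs were high in all 12 libraries. The summed level of Pou5f1, Nanog, Sox2, Zfp42, Esrrb, Tdgf1 and Dppa5a, in CPM per kb of counted length, was lowest at 96.5 and highest at 219. Dppa5a and Zfp42 were the most abundant, except in replicate 2 of XistΔm6A/11C with Dox, where Tdgf1 lay above Dppa5a. Sox2 was at 0 in every library, and its span lies inside that of Sox2ot on the same strand, where read pairs are not counted. The lowest sum was that of replicate 2 of XistΔm6A/11C with Dox. In that pair Zfp42 was at 41.3 with Dox against 37.0 without, and every other marker with counts was lower with Dox. Dppa5a was at 19.8 against 52.4, Tdgf1 at 20.4 against 27.8 and Pou5f1 at 6.58 against 10.2. Nanog was at 5.62 against 6.66 and Esrrb at 2.85 against 3.07. Of these markers only Tdgf1 was called in the line (edgeR). Tdgf1 fell with Dox in XistDelA and XistΔm6A/11C, with log2 fold changes of -0.44 and -0.37 (adjusted p = 0.00252 and 0.0381), and Zfp42 rose in XistDelA, with 0.40 (adjusted p = 0.00498). Of the 7 fibroblast markers, summed levels lay between 0.290 and 0.822, Thy1 was the most abundant, and Lum and Postn had at most 2 and 10 counts in any library. The part of these differences in the results below was not tested.

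Sequence variants assign some read pairs to 129S or Castaneus, but above 140 Mb nearly all went to Castaneus. The 129S share was 1.07 without Dox and 1.33 with Dox in WT, 1.34, 1.14 and 0.971 without Dox and 1.21, 1.09 and 0.910 with Dox in XistDelA, and 0.603 and 0.456 without Dox and 0.708 and 0.504 with Dox in XistΔm6A/11C, in percent of the allelic counts of the 157 genes. Wilson 95% intervals ran from 1.01% to 1.13% in WT without Dox and from 0.405% to 0.513% in replicate 2 of XistΔm6A/11C without Dox, and they cover counting error only. With Dox the share was higher in WT and both XistΔm6A/11C replicates and lower in the 3 clones, all within these low values. For X-linked genes below 140 Mb it went from 40.8% to 25.7% in WT. There it went from 41.0% to 40.6%, 41.5% to 41.3% and 42.6% to 40.3% in the XistDelA clones. In the XistΔm6A/11C replicates it went from 40.6% to 27.9% and from 42.0% to 32.1%. For the 101 genes above 140 Mb that averaged 10 or more allelic counts, the median share was 0.723%, 82 were under 3% and 4 over 10%. Low shares began well before 140 Mb: genes that start from 100 to 105 Mb were at 29.8% and those from 105 to 110 Mb at 0.524%. They were not even after that, with 8.12% from 120 to 125 Mb, 12.5% from 130 to 135 Mb and 4.38% from 135 to 140 Mb. Silencing above 140 Mb is therefore read here from totals, each gene against the median autosomal gene of the same pair. Why 129S counts are nearly absent there was not tested, so a change in totals is not assigned to an allele.

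**Figure D1:**
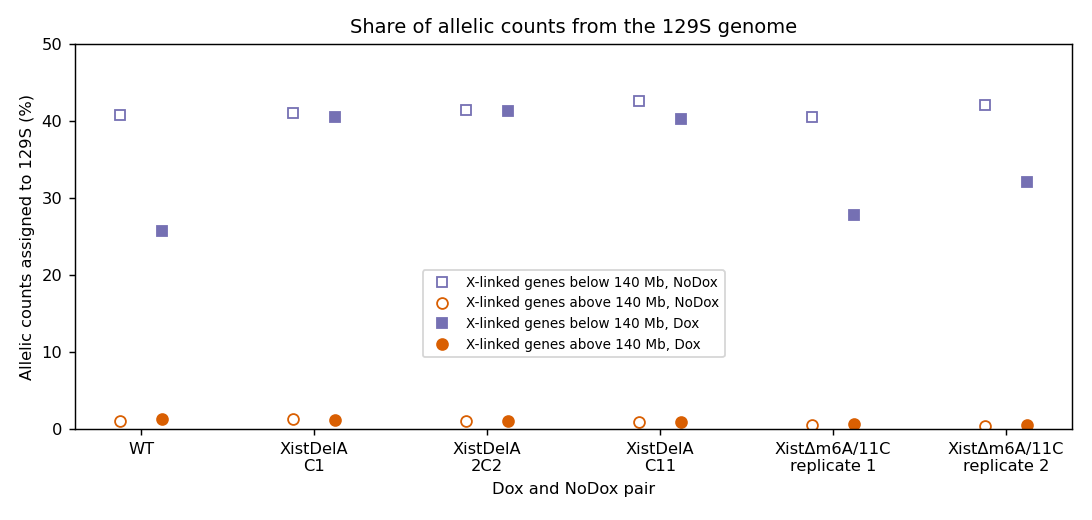
Percent of allelic counts assigned to 129S in each library, for X-linked genes above 140 Mb (circles) and below 140 Mb without Xist (squares), without Dox (open) and with Dox (filled). The genes above 140 Mb lie between 0.456% and 1.34% in all 12 libraries.

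The 4 exceptions were Shroom2, Col4a5, Luzp4 and Gm10439, picked out after their values were seen. Shroom2, an actin-binding protein, had a 129S share of 13.3% before and 14.2% after Dox in WT, of 12.7%, 15.2% and 12.5% before and 10.2%, 13.5% and 12.7% after Dox in XistDelA, and of 5.67% and 5.29% before and 6.24% and 4.82% after Dox in XistΔm6A/11C. Its share was lower in the 4 XistΔm6A/11C libraries than in the other 8. Col4a5, a collagen IV chain, was at 52.5% of 59 allelic counts in WT without Dox (Wilson 95% interval 40% to 64.7%) and 57.8% with Dox. It was at 49.5%, 54.2% and 66.0% before and 55.9%, 55.6% and 50.0% after Dox in XistDelA, and at 14.8% and 18.2% before and 32.7% and 8.33% after Dox in XistΔm6A/11C, again the lowest line. In replicate 2 these rest on 2 and 1 counts of 129S. Luzp4 and Gm10439, with few counts, did not keep this order. With Dox Luzp4 was at 13.6% and 15.6% in XistΔm6A/11C, 0% in WT and 9.52%, 14.3% and 11.1% in XistDelA. Without Dox Gm10439 was at 18.2% and 43.8%, 33.3%, and 21.1%, 25% and 28.6% in the same order.

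The genes differed widely in level. Of the 157, 7 had no counts in any library, 89 averaged 50 counts or more per library and 125 passed the count filter of the gene tests, which 1 library above the minimum is enough to pass. The other 32 were not tested. Levels are given in CPM per kb of counted length, introns included. Among the 89 the mean level without Dox ran from 0.00998 to 19.9, with Rbbp7, Ap1s2, Alg13, A830080D01Rik and Sat1 at the top. Without Dox, the median gene of the 89 stood at 0.11, 0.08 and 0.06 in the XistDelA clones and -0.13 and -0.06 in XistΔm6A/11C, as a log2 difference from WT without Dox relative to autosomal genes. These medians without Dox lay within 0.13 of WT in either direction, but single genes differed more. The quartiles were -0.43 and 0.28 in replicate 1 of XistΔm6A/11C and -0.58 and 0.28 in replicate 2. In the clones they were -0.04 and 0.28, -0.05 and 0.24, and -0.05 and 0.16.

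With 24 h of Dox the median of these genes was well below 0 in WT and XistΔm6A/11C and nearer 0 in XistDelA. The median log2 change relative to autosomal genes, over the 89 genes, was -0.55 in WT, -0.05, -0.14 and -0.17 in the XistDelA clones C1, 2C2 and C11, and -0.67 and -0.39 in the replicates of XistΔm6A/11C. The mean of the pair medians was -0.12 ± 0.06 (SD, n = 3) in XistDelA and -0.53 ± 0.19 (SD, n = 2) in XistΔm6A/11C, and WT has no replicate. Both XistΔm6A/11C values lay below all 3 XistDelA values, and the WT value lay between the XistΔm6A/11C replicates.

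The direction was close to uniform in WT and XistΔm6A/11C and mixed in XistDelA. Changes were below 0 for 89 of 89 genes in WT, for 49, 56 and 61 in the XistDelA clones and for 89 and 84 in the XistΔm6A/11C replicates. The middle of the distribution spanned -0.81 to -0.38 in WT, -0.28 to 0.09 in XistDelA clone 2C2 and -0.72 to -0.15 in replicate 2 of XistΔm6A/11C (quartiles). Both XistΔm6A/11C replicates lay below all 3 XistDelA clones for 69 of 89 genes, against 16.0% of 11811 autosomal genes, and above all 3 for 1 of 89, against 13.1% of autosomal genes. In XistDelA, 46 genes were below 0 in all 3 clones and 24 above 0 in all 3, against 30.1% and 29.9% of autosomal genes.

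**Figure D2:**
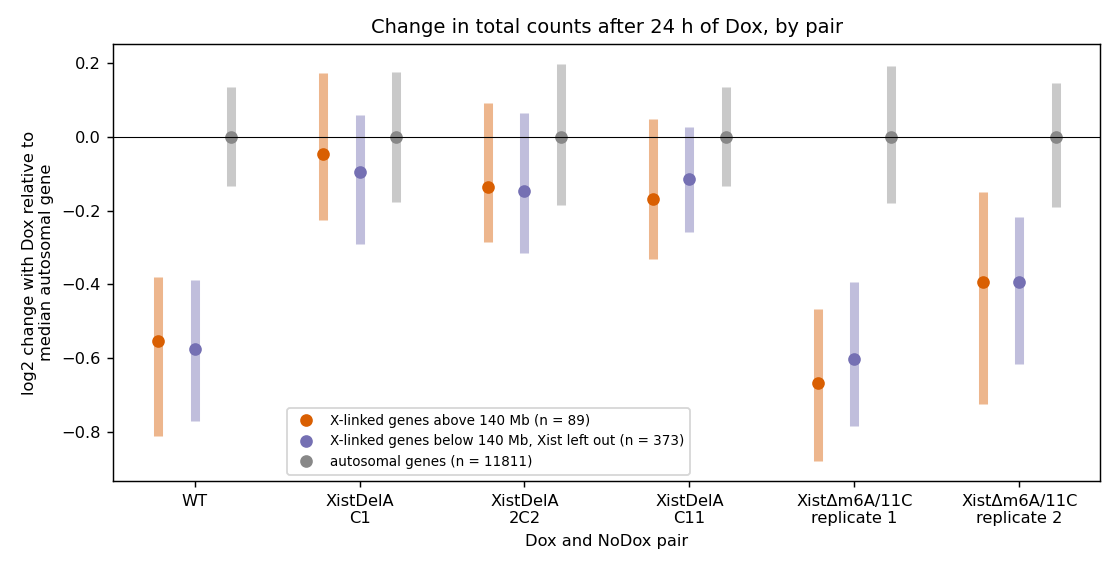
Log2 change in total counts with Dox in each pair, relative to the median autosomal gene, for X-linked genes above 140 Mb, X-linked genes below 140 Mb and autosomal genes. Points are medians over genes and bars span the quartiles; above 140 Mb the medians are -0.55 in WT, -0.05, -0.14 and -0.17 in XistDelA and -0.67 and -0.39 in XistΔm6A/11C.

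The genes above 140 Mb were close to the rest of the chromosome at the median. For the 373 genes below 140 Mb the medians were -0.57 in WT, -0.10, -0.15 and -0.11 in XistDelA and -0.60 and -0.39 in XistΔm6A/11C. Below 40 Mb the 101 genes had -0.41 in WT, -0.05, -0.09 and -0.05 in XistDelA and -0.43 and -0.30 in XistΔm6A/11C, and from 80 to 140 Mb the 140 genes had -0.69, -0.15, -0.23 and -0.18 and -0.72 and -0.46. The medians above 140 Mb lay between those of these segments in every pair but C1, where the median above 140 Mb was the nearest to 0. No test was run between segments, since genes are not replicates of a condition.

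Gene by gene, edgeR's quasi-likelihood test was run over all genes with the pair as a block, and a gene is called at an adjusted p under 0.05. In XistΔm6A/11C, 52 of the 125 tested genes above 140 Mb fell with Dox, against 2.57% of the 16254 genes tested. Of 505 tested X-linked genes below 140 Mb, 39.4% fell, close to the 41.6% above it. None of the 125 rose, against 0.751% of all genes. In that direction 0 of them had an unadjusted p under 0.05, and DESeq2 called 0. The calls rest on the pairing: without the block 0 fell by edgeR, with 46 at an unadjusted p under 0.05. The replicates of XistΔm6A/11C share only a number in the labels. With that line fitted alone 38 genes fell, with 203 instead of 417 over all genes. The calls for Smc1a, Iqsec2, Rps6ka3, Ammecr1 and Figf were then lost. Those for Iqsec2 and Gpm6b were lost without replicate 1, and that for Figf, a growth factor of vessels, with DESeq2 and without replicate 1, C1, 2C2 or C11. With 1 pair left in the line, the median change over the 89 genes was -0.39 without replicate 1 and -0.67 without replicate 2.

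In XistDelA, 22 genes above 140 Mb fell, against 5.38% of all genes, and 8 rose, against 5.44%. Among tested X-linked genes below 140 Mb 14.1% fell and 1.39% rose. The 8 of 125 (6.40%) are close to the share over all genes but above that of X-linked genes below 140 Mb. From 80 to 140 Mb 0.510% rose, and no test was run between segments. Without the block 0 genes fell and 0 rose by edgeR, with 15 and 2 at an unadjusted p under 0.05. DESeq2 with the block called 15 lower and 3 higher, with 772 and 538 over all genes. With the XistDelA libraries fitted alone, whose pairs are the same clone, 38 fell and 13 rose. Over all genes 2195 fell and 2189 rose in that fit, instead of 875 and 885. The count of falling genes was 4, 4 and 7 without C1, 2C2 and C11, and that of rising genes 0, 0 and 6. Over all genes these counts were 99, 117 and 338, and 91, 91 and 363. Among the 34 genes chosen to be named, only Sat1 and Ap1s2 were called in XistDelA whichever clone was left out.

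Of the 22 genes that fell in XistDelA, 17 also fell in XistΔm6A/11C, where 34 more were called that XistDelA did not call. Iqsec2 rose in XistDelA and fell in XistΔm6A/11C. The overlap of calls between the lines was not counted over all genes, so the overlap counts of this paragraph are a description. The difference between the lines was tested itself, as the Dox effect in XistΔm6A/11C minus that in XistDelA. It was lower for 14 of 125 genes, against 0.554% of all genes, and higher for 0, against 0.178%. Of 505 tested X-linked genes below 140 Mb, 9.11% were lower and 0 higher. At an unadjusted p under 0.05, 70 genes above 140 Mb were lower and 0 higher. Of 15613 autosomal genes these were 866 and 801. DESeq2 called 16 lower and 0 higher above 140 Mb. Of the 14, 9 were not called in XistDelA (Mid2, Tro, Tspyl2, Rragb, 2210013O21Rik, Cnksr2, Map3k15, Nhs and Pir) and 5 had risen there (Tsc22d3, Gm15097, Iqsec2, 3010001F23Rik and Ctps2). None of the 17 genes that fell in both lines was among the 14, and 61 of the 125 were called in neither line. Without the block the test called 0 genes, with 20 at an unadjusted p under 0.05. The count was 3, 2 and 10 without C1, 2C2 and C11, with 13, 13 and 32 over all genes instead of 90. Of the 5 differences named below, that of Tro was kept whichever pair was left out, those of Tsc22d3, Iqsec2 and Ctps2 were lost without C1 or 2C2, and that of Tspyl2 without any 1 clone.

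**Figure D3:**
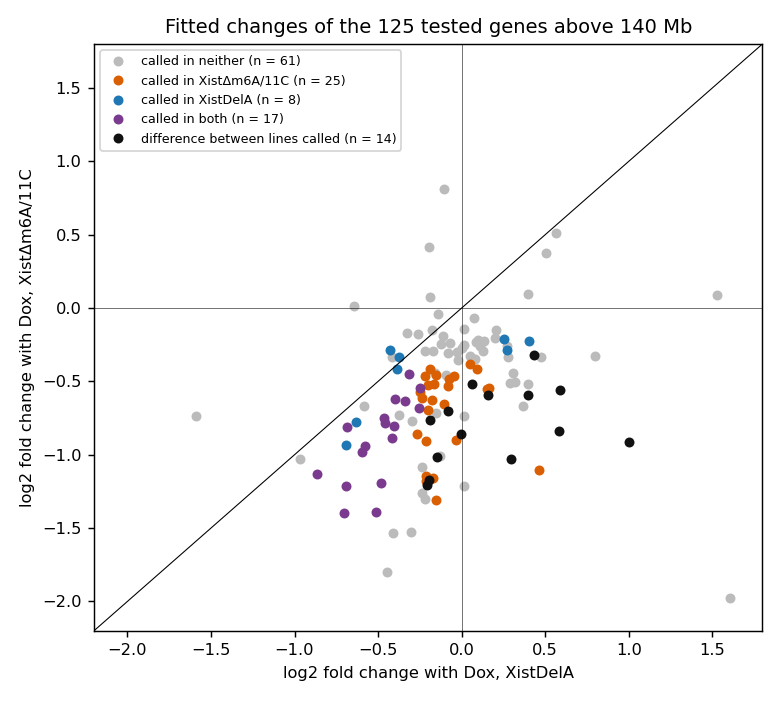
Fitted log2 fold change with Dox in XistΔm6A/11C against that in XistDelA for the 125 tested genes above 140 Mb, coloured by call (adjusted p under 0.05, edgeR with the pair as a block). The diagonal marks equal change; the 14 genes whose difference between lines was called lie below it.

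Counts on lists of genes by role are read against the stretch, where 41.6% of the 125 tested genes fell in XistΔm6A/11C and 17.6% fell and 6.40% rose in XistDelA. No test was run between lists. Sat1, the acetyltransferase that starts polyamine breakdown, was at 9.22 before and 4.89 after Dox in WT, at 9.32, 13.4 and 11.3 before Dox and 5.96, 8.17 and 7.41 after it in the XistDelA clones C1, 2C2 and C11, and at 9.22 and 7.20 before Dox and 5.25 and 4.05 after it in XistΔm6A/11C. Every library with Dox lay below its partner without Dox. The fitted log2 fold change was -0.69 (SE 0.08, adjusted p = 0.000329) in XistDelA and -0.81 (SE 0.11, adjusted p = 0.000491) in XistΔm6A/11C, and their difference was -0.13 (SE 0.14, adjusted p = 0.782). Sms, which makes spermine, had log2 changes of -0.33 in WT, 0.07, -0.05 and -0.003 in the XistDelA clones and -0.24 and -0.08 in XistΔm6A/11C relative to autosomal genes, and neither line called it.

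Enzymes of nucleotide synthesis differed in their calls. Ctps2, a CTP synthase, was at 0.577 before and 0.467 after Dox in WT, at 0.624, 0.535 and 0.510 before Dox and 0.926, 0.784 and 0.611 after it in the XistDelA clones C1, 2C2 and C11, and at 0.765 and 0.939 before Dox and 0.590 and 0.769 after it in XistΔm6A/11C. Each XistDelA clone was higher with Dox and each other pair lower, although the libraries before and after Dox overlapped in both deletion lines. The fold changes were 0.43 (SE 0.08, adjusted p = 0.00374) and -0.32 (SE 0.10, adjusted p = 0.100), and their difference was -0.75 (SE 0.13, adjusted p = 0.0120). Prps1, which makes the ribose donor of nucleotide synthesis, had the same order of lines, with -0.34 in WT, 0.23, 0.29 and 0.22 in the XistDelA clones and -0.32 and -0.13 in XistΔm6A/11C; it rose in XistDelA with 0.26 (SE 0.07, adjusted p = 0.0352), and the difference between lines was not called. This rise was lost with DESeq2 (adjusted p = 0.0625), with DESeq2 size factors in edgeR (0.0621) and without C1, 2C2 or C11 (0.277, 0.341 and 0.136). Prps2, a second such enzyme, fell in XistΔm6A/11C, with -0.57 (SE 0.11, adjusted p = 0.00593), and was not called in XistDelA, with -0.25 (SE 0.09, adjusted p = 0.0705). Alg13, part of the enzyme that adds the second sugar of N-glycans, was among the most abundant genes and had log2 changes of -0.49 in WT, 0.04, -0.04 and -0.08 in the XistDelA clones and -0.57 and -0.17 in XistΔm6A/11C, with no call. Of the 13 tested genes on the metabolic list, on which Sat1 does not stand, 5 fell in XistΔm6A/11C and 0 in XistDelA, against 41.6% and 17.6% of the stretch, and 2 rose in XistDelA.

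Of 3 tested genes of genome maintenance, 3 fell in XistΔm6A/11C, against 41.6% of the stretch, and 0 were called in XistDelA. The difference between lines was called for 0 of 3. Smc1a, a cohesin subunit, was at 5.89 before and 3.54 after Dox in WT, at 5.85, 5.82 and 6.03 before and 5.23, 5.44 and 5.49 after Dox in the 3 XistDelA clones, and at 5.81 and 6.42 before and 3.73 and 4.82 after Dox in XistΔm6A/11C. Within each line the libraries with Dox lay below those without. Its fold change was -0.52 (SE 0.10, adjusted p = 0.00644) in XistΔm6A/11C, and the difference was -0.36 (SE 0.13, adjusted p = 0.245). Apex2, an endonuclease of base excision repair, gave -0.65 (SE 0.10, adjusted p = 0.00195) there and -0.92 in WT, 0.01, -0.10 and -0.25 in the XistDelA clones and -0.85 and -0.49 in XistΔm6A/11C by pair, with a difference of -0.55 (SE 0.13, adjusted p = 0.0774).

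Chromatin and transcription genes included the most abundant gene of the stretch. Rbbp7, a histone-binding subunit of deacetylase and Polycomb complexes, was at 22.8 before and 11.6 after Dox in WT, at 22.6, 25 and 23.0 before Dox and 18.7, 19.4 and 17.2 after it in the XistDelA clones C1, 2C2 and C11, and at 11.4 and 14.7 before Dox and 7.12 and 13.0 after it in XistΔm6A/11C. It was lower with Dox in all 6 pairs, though replicate 2 of XistΔm6A/11C showed the smallest change. Its fold change was -0.39 (SE 0.10, adjusted p = 0.0199) in XistDelA and -0.42 (SE 0.12, adjusted p = 0.0801) in XistΔm6A/11C, so that it was called only in the former, and the difference was -0.03 (SE 0.16, adjusted p = 0.967). Tspyl2, a nucleosome assembly family member, was at 2.71 before and 1.51 after Dox in WT, at 2.54, 2.57 and 2.77 before and 2.55, 2.4 and 2.33 after Dox in the 3 XistDelA clones, and at 4.76 and 3.07 before and 2.47 and 1.42 after Dox in XistΔm6A/11C. Both XistΔm6A/11C libraries with Dox lay below those without, whereas the XistDelA states overlapped. It fell in XistΔm6A/11C, with -1.01 (SE 0.12, adjusted p = 0.000219), and the difference from XistDelA was -0.87 (SE 0.16, adjusted p = 0.0183). Tsc22d3, a glucocorticoid-induced transcription regulator, rose in XistDelA with 0.59 (SE 0.15, adjusted p = 0.0171) and had -1.15 (SE 0.22, adjusted p = 0.0247) as the difference. Of 8 tested genes of this list, 3 fell in XistΔm6A/11C and 1 in XistDelA, against 41.6% and 17.6% of the stretch, and 1 rose in XistDelA.

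Among the 7 genes of translation and RNA processing, 2 fell in each line, against 41.6% of the stretch in XistΔm6A/11C and 17.6% in XistDelA. Eif1ax, a translation initiation factor, was at 8.03 before and 4.65 after Dox in WT, at 7.41, 7.61 and 7.41 before and 5.67, 5.72 and 5.66 after Dox in the 3 XistDelA clones, and at 4 and 3.73 before and 3.26 and 3.05 after Dox in XistΔm6A/11C. All 6 pairs were lower with Dox. It fell in XistDelA with -0.43 (SE 0.07, adjusted p = 0.00222), and its change in XistΔm6A/11C, -0.29 (SE 0.09, adjusted p = 0.123), was not called, nor was the difference (adjusted p = 0.706). Txlng, a syntaxin-binding protein, had log2 changes of -0.36 in WT, 0.03, -0.04 and 0.02 in the XistDelA clones and -0.32 and -0.21 in XistΔm6A/11C and was called in neither line.

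Of 13 tested kinases and signalling genes, 11 fell in XistΔm6A/11C, against 41.6% of the stretch, while 3 fell and 1 rose in XistDelA, against 17.6% and 6.40%. Iqsec2, an exchange factor for ARF GTPases, was at 0.164 before and 0.130 after Dox in WT, at 0.158, 0.167 and 0.140 before and 0.220, 0.257 and 0.159 after Dox in the 3 XistDelA clones, and at 0.282 and 0.171 before and 0.186 and 0.113 after Dox in XistΔm6A/11C. With Dox each XistDelA clone was higher and each other pair lower, and before and after Dox overlapped in both deletion lines. The fold changes were 0.40 (SE 0.11, adjusted p = 0.0246) and -0.59 (SE 0.13, adjusted p = 0.0174), with a difference of -0.99 (SE 0.17, adjusted p = 0.0120). The rise was lost with DESeq2 (adjusted p = 0.0740). Rps6ka3, the kinase RSK2, fell in XistΔm6A/11C with -0.46 (SE 0.10, adjusted p = 0.0124), and Ammecr1 with -0.52 (SE 0.10, adjusted p = 0.00659). Neither was called in XistDelA, where their pair changes were -0.11, -0.22 and -0.16 for Rps6ka3 and -0.18, -0.25 and -0.20 for Ammecr1, and neither difference between lines was called (adjusted p = 0.323 and 0.311).

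Of 5 tested genes of protein turnover, 4 fell in XistΔm6A/11C and 3 in XistDelA, against 41.6% and 17.6% of the stretch. Usp51, a deubiquitinase, had the lowest fold change in XistΔm6A/11C among the called genes of the 89, and was at 2.07 before and 0.866 after Dox in WT, at 2.19, 2.64 and 2.58 before Dox and 1.64, 2.01 and 1.67 after it in the XistDelA clones C1, 2C2 and C11, and at 1.40 and 1.47 before Dox and 0.613 and 0.460 after it in XistΔm6A/11C. Every pair was lower with Dox, and the states did not overlap within a line. The fold changes were -0.51 (SE 0.13, adjusted p = 0.0217) and -1.39 (SE 0.21, adjusted p = 0.00112), and their difference was not called (adjusted p = 0.127). Ubqln2, a ubiquitin shuttle protein, fell with -0.41 (SE 0.11, adjusted p = 0.0242) and -0.80 (SE 0.14, adjusted p = 0.00451). With DESeq2 the XistDelA calls of both Usp51 and Ubqln2 were lost (adjusted p = 0.0912 and 0.0592). Siah1b, a ubiquitin ligase, fell in XistDelA with -0.37 (SE 0.09, adjusted p = 0.0112) and was not called in XistΔm6A/11C, with -0.33 (SE 0.12, adjusted p = 0.156), nor was the difference (adjusted p = 0.945).

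Membrane traffic held 1 of the most abundant genes. Ap1s2, a subunit of the clathrin adaptor AP-1, was at 17.4 before and 8.04 after Dox in WT, at 16.2, 28.6 and 20.2 before Dox and 9.17, 18.7 and 13.9 after it in the XistDelA clones C1, 2C2 and C11, and at 19.8 and 13.3 before Dox and 7.09 and 6.80 after it in XistΔm6A/11C. It was lower with Dox in all 6 pairs, while the clones differed in level, 2C2 with Dox lying above C1 without. The fold changes were -0.69 (SE 0.10, adjusted p = 0.000995) in XistDelA and -1.21 (SE 0.13, adjusted p = 8.87e-05) in XistΔm6A/11C, and the difference, -0.52 (SE 0.16, adjusted p = 0.178), was not called. Rab9, a GTPase of late endosomes, had log2 changes of -0.45 in WT, -0.01, -0.28 and -0.27 in the XistDelA clones and -0.25 and -0.08 in XistΔm6A/11C, and Ofd1, a centriole protein, -0.54 in WT, -0.11, -0.24 and -0.19 in the XistDelA clones and -0.49 and -0.12 in XistΔm6A/11C. Neither was called. Of the 7 genes of this list, 3 fell in XistΔm6A/11C and 2 in XistDelA, against 41.6% and 17.6% of the stretch.

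Of 5 tested MAGE family genes, Tro, Maged2 and Mageh1 fell in XistΔm6A/11C, against 41.6% of the stretch, and 0 of 5 were called in XistDelA. Magea8 and Magea5, which have few counts and do not stand on the MAGE list, had 0.37 (SE 0.34, adjusted p = 0.675) and 0.07 (SE 0.30, adjusted p = 0.942) in XistΔm6A/11C. Tro, or trophinin, was at 3.73 before and 1.86 after Dox in WT, at 4.53, 3.98 and 3.62 before Dox and 3.94, 3.69 and 3.10 after it in the XistDelA clones C1, 2C2 and C11, and at 6.76 and 4.62 before Dox and 2.98 and 1.95 after it in XistΔm6A/11C. With Dox, WT and both replicates of XistΔm6A/11C lay well below their partners, and the 3 clones overlapped between states. It fell with -1.20 (SE 0.09, adjusted p = 4.25e-06) in XistΔm6A/11C. In XistDelA it had -0.21 (SE 0.07, adjusted p = 0.0856) and was not called, and the difference was -0.996 (SE 0.12, adjusted p = 0.00201). Maged2 fell with -1.15 (SE 0.18, adjusted p = 0.00201) in XistΔm6A/11C, and its difference of -0.93 (SE 0.23, adjusted p = 0.0795) was not called.

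Genes of the cytoskeleton and of differentiated tissues completed the lists. Tmsb4x, which binds actin monomers, was at 9.40 before and 4.74 after Dox in WT, at 11.2, 10.3 and 10.5 before and 6.88, 7.10 and 7.95 after Dox in the 3 XistDelA clones, and at 5.54 and 4.98 before and 3 and 2.45 after Dox in XistΔm6A/11C. All 6 pairs were lower with Dox, and the states did not overlap within a line. It fell with -0.58 (SE 0.10, adjusted p = 0.00214) in XistDelA and -0.94 (SE 0.14, adjusted p = 0.00113) in XistΔm6A/11C. Of 7 cytoskeleton genes, 4 fell in XistΔm6A/11C and 1 in XistDelA, against 41.6% and 17.6% of the stretch. Among 17 tested genes of the extracellular matrix and differentiated tissues, 3 fell in each line, a share below that of the stretch in XistΔm6A/11C (41.6%) and equal to it in XistDelA (17.6%). Col4a6, a collagen IV chain, fell with -1.19 (SE 0.17, adjusted p = 0.000683) in XistΔm6A/11C and -0.48 (SE 0.14, adjusted p = 0.0360) in XistDelA, where DESeq2 did not call it (adjusted p = 0.0959), and Gpm6b, a membrane glycoprotein, with -1.18 (SE 0.22, adjusted p = 0.00659) in XistΔm6A/11C. Capn6, a calpain without protease activity and the gene of the 89 with the highest fitted value in XistΔm6A/11C, had 0.10 (SE 0.21, adjusted p = 0.884) and pair changes of -0.52 in WT, 0.38, 0.42 and 0.35 in the XistDelA clones and -0.22 and 0.32 in XistΔm6A/11C.

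**Figure D4:**
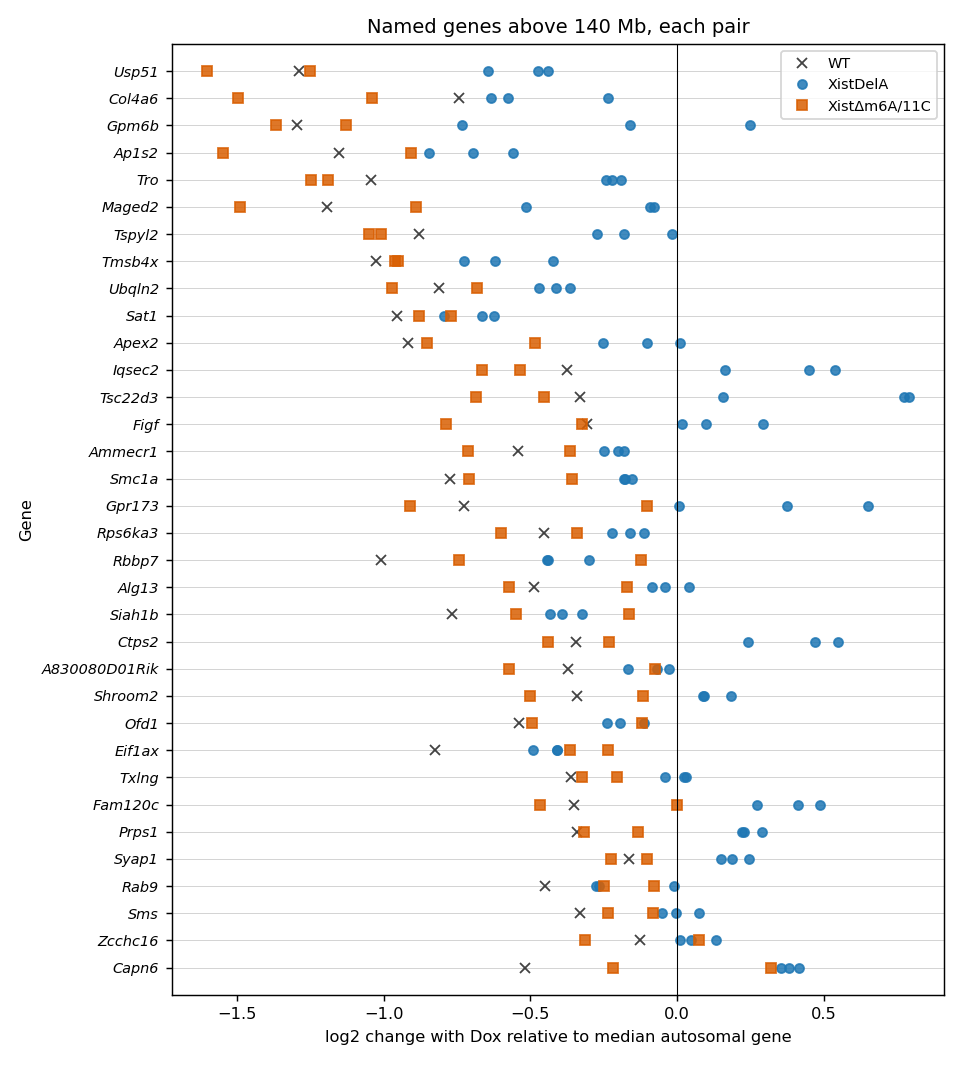
Log2 change with Dox relative to the median autosomal gene for the 34 genes above 140 Mb chosen to be named, in each pair, ordered by the mean in XistΔm6A/11C. Crosses are WT, circles the 3 XistDelA clones and squares the 2 XistΔm6A/11C replicates; Sat1 has all 6 values at or below -0.62 and Ctps2 has circles above 0 and squares below.

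Promoter sequences are shown for 1 gene whose difference between lines was called and 2 that fell in both lines. RefSeq promoters (GRCm38.p6) matched 120 of the 157 genes by symbol, and the 250 bases before the start were used. Tspyl2 lies at chrX:152342485-152342734 on the minus strand, Sat1 at chrX:155216450-155216699 on the minus strand and Ap1s2 at chrX:163908767-163909016 on the plus strand; each sequence runs 5' to 3' along the gene, and capitals mark CG.
Tspyl2: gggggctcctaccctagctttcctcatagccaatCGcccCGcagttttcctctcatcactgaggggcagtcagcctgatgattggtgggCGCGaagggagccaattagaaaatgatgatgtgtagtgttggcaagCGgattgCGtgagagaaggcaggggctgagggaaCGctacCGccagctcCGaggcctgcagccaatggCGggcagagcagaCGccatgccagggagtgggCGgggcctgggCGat
Sat1: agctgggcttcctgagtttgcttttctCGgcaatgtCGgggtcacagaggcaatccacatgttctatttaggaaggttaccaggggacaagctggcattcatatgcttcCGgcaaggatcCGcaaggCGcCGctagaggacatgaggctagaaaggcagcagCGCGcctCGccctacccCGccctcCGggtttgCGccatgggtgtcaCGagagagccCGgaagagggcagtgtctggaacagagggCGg
Ap1s2: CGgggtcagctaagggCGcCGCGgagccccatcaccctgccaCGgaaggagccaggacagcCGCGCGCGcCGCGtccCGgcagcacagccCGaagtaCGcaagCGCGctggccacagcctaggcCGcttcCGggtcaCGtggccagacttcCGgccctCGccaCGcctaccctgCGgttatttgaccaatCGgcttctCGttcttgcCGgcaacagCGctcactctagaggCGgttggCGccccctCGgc
They hold 13, 15 and 30 CG, against a median of 6 over 27025 promoters. Of promoters, 38.2% had at least 10 CG in all, 65.0% among 40 genes that fell in XistΔm6A/11C and 43.3% among 60 tested genes that were not called there. On either strand, GGGCGG was in 32.9%, 67.5% and 48.3% of these sets, CCAAT in 34.5%, 40% and 48.3%, and TATAAA in 13.0%, 7.50% and 11.7%. GGGCGG itself contains CG. CCATNTT was in 12.5%, 5.00% and 5.00%, and a match is a description, not evidence of binding. The set of all promoters takes the first entry of each gene, with or without counts. For genes above 140 Mb the start nearest to the counted 5' end was taken. Of 20 such genes that were not tested, 5.00% had at least 10 CG, and the part of level in these shares was not tested.

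Within the stretch the median change varied by position. In steps of 5 Mb from 140 to 170 Mb, the mean of the pair medians in XistΔm6A/11C was -0.57, -0.83, -0.58, -0.45, -0.44 and -0.42, with 15, 3, 29, 14, 18 and 10 genes in the steps. The values for WT were -0.52, -0.77, -0.77, -0.48, -0.54 and -0.58, and those for XistDelA -0.04, -0.46, -0.07, -0.16, -0.10 and -0.21. The lowest step in both deletion lines was the one from 145 Mb, which rests on 3 genes. Across the 89 genes the change in WT had r = 0.03 with position, -0.06 with log level and 0.34 with log length. In XistDelA these were -0.17, -0.24 and 0.25, and in XistΔm6A/11C 0.12, 0.21 and 0.12. In 3 groups of 30, 29 and 30 genes by counted length the median in WT was -0.82, -0.54 and -0.53 from short to long, in XistDelA -0.23, -0.05 and -0.08, and in XistΔm6A/11C -0.58, -0.49 and -0.54.

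**Figure D5:**
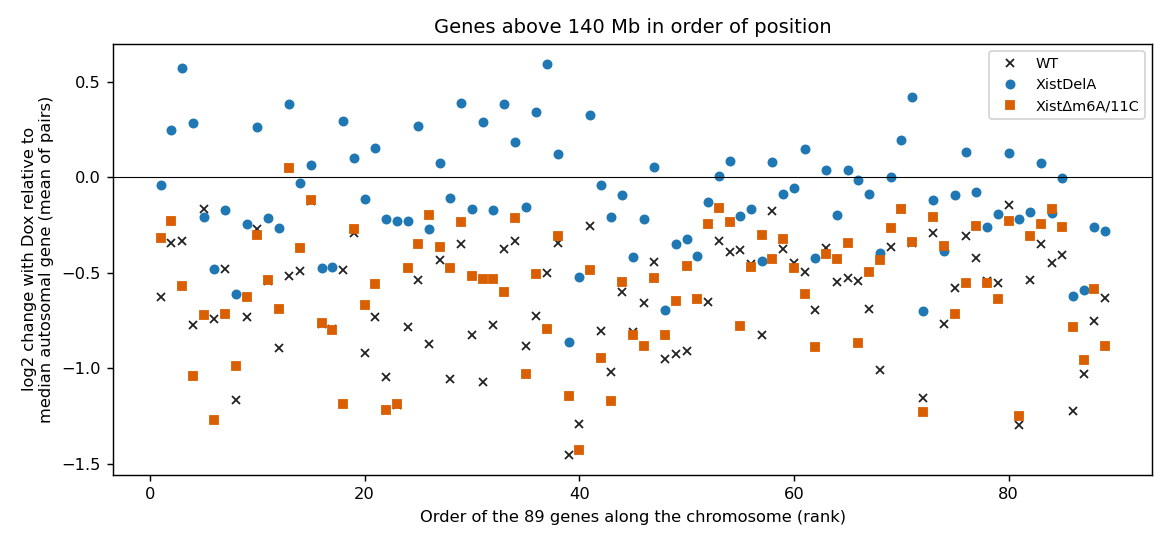
Log2 change with Dox relative to the median autosomal gene for the 89 genes above 140 Mb averaging 50 counts or more, in order along the chromosome. Crosses are WT (1 pair), circles the mean of 3 XistDelA clones and squares the mean of 2 XistΔm6A/11C replicates; WT is below 0 for 89 of 89 genes.

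The order of the genes by change was partly shared between lines. Across the 89 genes, Pearson's r was 0.65 between WT and XistΔm6A/11C, 0.65 between WT and XistDelA and 0.46 between the deletion lines. Autosomal genes gave 0.44, 0.63 and 0.41 over 11811 genes. These lines share no libraries, but the points are genes, which are not independent, and noise differs with their depth. X inactivation factors encoded on other chromosomes were followed beside them: of 15, 4 fell and 1 rose in XistDelA, against 5.38% and 5.44% of all genes, and 0 were called in XistΔm6A/11C by edgeR. Hnrnpk, an RNA-binding protein that recruits Polycomb to Xist, fell in XistDelA, with a log2 fold change of -0.36 (adjusted p = 0.0351), and Ythdc1, the nuclear m6A reader, with -0.35 (adjusted p = 0.0147). Rbm15 fell with -0.27 (adjusted p = 0.0483) and Rbm15b with -0.35 (adjusted p = 0.0449), while Pcgf5 rose with 0.31 (adjusted p = 0.0165). In the WT pair CPM went from 506 to 459 for Hnrnpk, 379 to 338 for Ythdc1, 120 to 114 for Rbm15, 15.5 to 13.8 for Rbm15b and 41.0 to 51.2 for Pcgf5. Without the pair as a block no gene at all was called lower in XistDelA, these 4 included.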

How the data were processed

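The authors aligned ChrRNA-seq read pairs to mm10 (STAR 2.4.2a and Bowtie2 2.3.2 are named in the submitters' processing notes), counted them with featureCounts over gene spans by strand, introns included, and deposited raw counts in total and per parental genome. Read pairs on 2 overlapping genes were not counted, which touches 6 members. Since allelic Xist counts fell almost wholly on genome 2, that was read as 129S. The members and gene lists were chosen with earlier results of these data known. Gene tests used edgeR 4.0.16 in R 4.3.3 over all 12 libraries: TMM, filterByExpr with a minimum count of 10, the pair and the Dox effect of each line as terms, and Benjamini-Hochberg adjustment over 16254 genes, which left 3 residual degrees of freedom. WT, with 1 pair, got no test. The pair was a term since the study measures silencing as induced minus uninduced of one line. Pairs come from clone names in XistDelA and from a number alone in XistΔm6A/11C. Deviations from group means correlated within pairs at 0.59, 0.37 and 0.54 in the clones and 0.69 in XistΔm6A/11C. The study's methods call the replicates biological, and the labels do not say whether they are separate cultures, so p-values measure the spread between these samples. Relative changes are log2 of counts plus 0.5, with Dox over without, minus the autosomal median. Genes were named by level, by change in XistΔm6A/11C, by rises and as the 2 highest of each list; choices by change are a description. DESeq2 1.42.0 was an alternative, and the scripts were tested on simulated data.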

Additional observations from a re-analysis of the deposited data

Results flagged for a closer look

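For 5 named genes the change with Dox differed between the lines by the test of the difference itself. The log2 fold change in XistΔm6A/11C minus that in XistDelA was -0.996 for Tro, -0.99 for Iqsec2, -0.75 for Ctps2, -0.87 for Tspyl2 and -1.15 for Tsc22d3, with adjusted p of 0.00201, 0.0120, 0.0120, 0.0183 and 0.0247 by edgeR with the pair as a block. Iqsec2, Ctps2 and Tsc22d3 were above 0 in all 3 XistDelA clones and below 0 in both XistΔm6A/11C replicates. Tro and Tspyl2 were below 0 in all 5 of these pairs. Without C1 the adjusted p was 0.0112, 0.0922, 0.125, 0.162 and 0.160 in the same order, and without 2C2 0.0179, 0.113, 0.113, 0.124 and 0.151, so that only Tro was kept. Tspyl2 was also lost without C11, at 0.0594. Without the block none of the 5 was called. The part of the libraries' other differences, such as Rmrp, was not tested.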

How the results depend on the processing

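The median changes kept their sign under every alternative, and no result turned its direction. The count of genes that rose in XistΔm6A/11C, and of those that fell less there than in XistDelA, was 0 throughout. Limits are few pairs (1 in WT, 3 clones, 2 replicates), a shared estimate of the spread on 3 residual degrees of freedom, totals that cannot be divided by allele since 129S counts are nearly absent above 140 Mb, and low counts for 68 of the 157 genes. The XistΔm6A/11C replicates differ in depth and in the size of the change, and other differences of that line's libraries cannot be told apart from the deletion.

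Without the pair as a block, all 4 counts by edgeR went to 0: genes lower in XistDelA from 22 to 0, higher there from 8 to 0, lower in XistΔm6A/11C from 52 to 0, and falling more in XistΔm6A/11C from 14 to 0. An alternative chosen after seeing the data kept the block for the XistDelA clones only, whose pairing is by clone, and gave 0, 0, 0 and 0, with 15, 1, 49 and 22 genes at an unadjusted p under 0.05. In both fits the spread includes the differences between the XistΔm6A/11C replicates, and the cause was not tested further. Of 35 called results on the 34 genes chosen by the naming rule, which other genes in the text are not among, 0 were kept without the block and 0 with the block for the clones only.

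With the XistDelA libraries fitted alone, 38 genes fell and 13 rose instead of 22 and 8, and with those of XistΔm6A/11C alone 38 fell instead of 52. Over all genes these counts were 2195 and 2189 instead of 875 and 885, and 203 instead of 417. Rising genes in XistDelA were 5 with DESeq2 size factors and 3 by the DESeq2 Wald test, which tested 81 of the genes. Over all genes 712 and 538 rose in these fits. Without a filter on counts, 23 instead of 14 genes fell more in XistΔm6A/11C than in XistDelA, with 150 tested. Over all genes this count was 149 instead of 90. The cause was not tested. Of the 35 named results, 34, 35, 29, 35, 35 and 30 were kept with DESeq2 size factors, TMM on autosomal genes, the Wald test, no filter, a minimum count of 50 and each line alone.

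With 1 pair left out at a time, genes that fell in XistDelA numbered 4 to 38, those that rose there 0 to 13, those that fell in XistΔm6A/11C 42 to 83 and those that fell more in XistΔm6A/11C 2 to 63. Fewer libraries leave fewer pairs in a line, and leaving out either XistΔm6A/11C replicate takes the difference between them out of the spread. With either replicate left out, the counts over all genes rose too, in each line and for the difference between lines. Every upper end above comes from such a fit, as does the lowest count of falls in XistΔm6A/11C. The higher counts are therefore not read as a stronger result for the genes above 140 Mb. Of the 35 named results, 18, 19 and 27 were kept without C1, 2C2 and C11, and 32 and 35 without replicate 1 and 2 of XistΔm6A/11C.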
